A study of Homo sapiens with 2 samples.

Results

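The genes described here are 10 transcription factors and regulators of the ATF4 stress pathway, in the established human gastric cancer line HGC-27. They were taken by gene name from the deposited table of expression levels: ATF4, ATF3, ATF5, DDIT3, TRIB3, CEBPB, CEBPG, NUPR1, PPP1R15A and EIF2AK3. All 10 were found, each on 1 entry, among 56544 gene names, of which 14288 reached an FPKM of 1 in at least 1 library and were compared. FPKM counts sequenced fragments per length of transcript and per library total. RNA was sequenced from 1 library of cells given a control peptide and 1 library of cells given a peptide that the sample titles call SOS and the series title calls SHAP. Both peptides were delivered in PDPA micelles and both cultures were treated for 48 h in serum-containing medium, with no other agent or genetic change given. The labels describe the line as undifferentiated. Because each group has 1 library, no difference could be set against replicate error and none was tested; the values describe these 2 libraries and not the treatment at large.

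The integrated stress response is a common path by which cells answer shortages of amino acids, misfolded protein in the endoplasmic reticulum, loss of mitochondrial function or lack of haem. Each stress activates a kinase that phosphorylates the translation initiation factor eIF2α, which lowers protein synthesis in general and raises translation of a few messages, ATF4 among them. The ATF4 protein then binds DNA with C/EBP partners and switches on genes for amino acid supply and for feedback, and, if stress lasts, genes of cell death. Because ATF4 is controlled in large part at translation, its RNA level does not show how much ATF4 protein a cell holds.

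Of the 10 genes, 9 were higher in the SOS library and 1, ATF5, was lower. A ratio above 0 was found for 45.8% of all genes compared. The median log2 ratio, log2((SOS FPKM + 1)/(control FPKM + 1)), was 0.44 over the 10 genes and -0.05 over all genes compared. The size rule used here is an absolute log2 ratio of at least 1, which is a 2-fold difference on that scale and understates the difference of genes with low levels. By that rule 0 of the 10 genes were higher, against 3.74% of all genes, and 0 were lower, against 1.64%. Giving both libraries the same summed FPKM, called equal-sum scaling below, moved the median of all genes from -0.05 to 0.15. Under that scaling 2 of the 10, NUPR1 and DDIT3, were past the size rule, against 6.03% of all genes, and ATF5 was still below 0. Directions follow the column names of the FPKM, and the authors' own log2 ratio has the opposite sign.

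**Figure D1:**
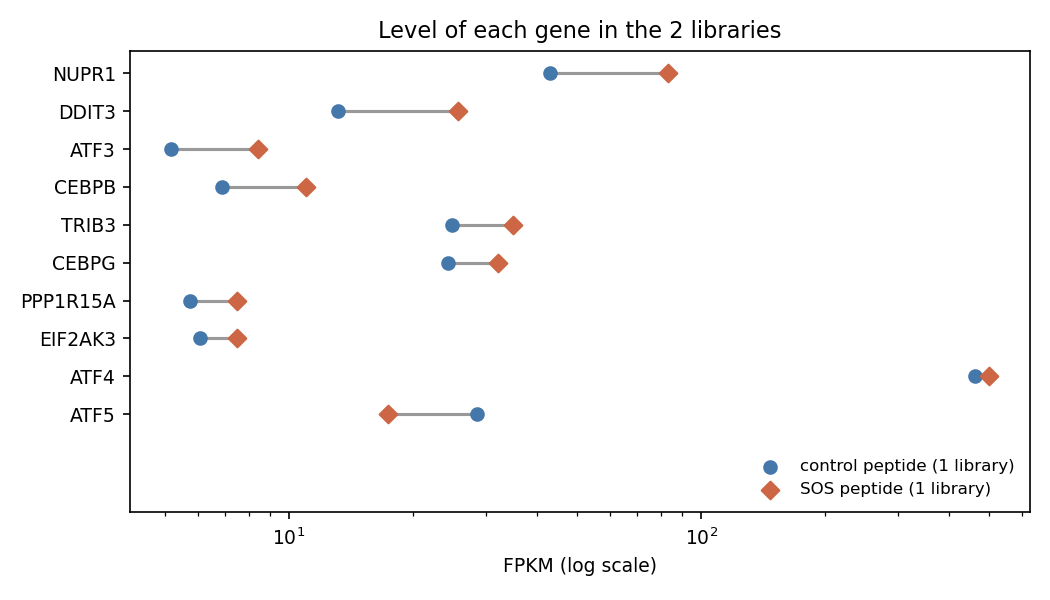
FPKM on a log axis for each of the 10 genes, with a circle for the library of the control peptide and a diamond for that of SOS, ordered by log2 ratio. ATF4 stands far to the right of the other genes in both libraries, and ATF5 is the gene whose SOS point lies to the left.

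Marker lists were read for the type of the cells. The epithelial markers were low and the fibroblast markers were above the minimum, which does not by itself identify the line. Of 5 epithelial markers none reached an FPKM of 1 in either library. KRT8 was at 0.797 in control and 0.353 in SOS, and CDH1, the E-cadherin gene, was listed at 0 in control and 0.016 in SOS. All 5 fibroblast markers were above 1 and higher in SOS, and their summed FPKM was 429 with the control peptide and 696 with SOS, with COL1A1 at 210 and 379. Of the leukocyte markers reported, PTPRC was at 0.018 and 0.041, CD68 at 0.311 and 0.287, and CD3E at 0 in both libraries. Endothelial markers summed to 0.009 and 0.016, with CDH5 at 0 in both. The part of these cell states in the values below was not tested. In bulk RNA fewer cells of a type and less RNA per cell cannot be told apart. The total counts of the libraries are not given, so no interval for counting error can be stated.

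Promoter windows from RefSeq (GRCh38.p14, 250 bases before to 50 after a transcript start) matched 9 of the 10 genes, with 18 windows in all; NUPR1 did not match. The following windows are shown because they hold letters of the elements through which ATF4, C/EBP, CREB and AP-1 proteins bind DNA. They are read on the strand of the gene, with the matched letters in capitals. The windows are those of CEBPG at chr19:33373863-33374162 (plus strand), ATF3 at chr1:212565157-212565456 (plus), PPP1R15A at chr19:48872171-48872470 (plus) and DDIT3 at chr12:57520465-57520764 (minus).
CEBPG: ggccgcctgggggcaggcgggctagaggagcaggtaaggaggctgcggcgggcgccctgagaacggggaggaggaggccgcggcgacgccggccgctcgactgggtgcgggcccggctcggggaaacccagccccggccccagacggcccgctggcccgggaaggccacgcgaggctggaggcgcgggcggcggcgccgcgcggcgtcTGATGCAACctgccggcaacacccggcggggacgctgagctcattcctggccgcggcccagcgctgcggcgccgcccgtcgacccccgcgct
ATF3: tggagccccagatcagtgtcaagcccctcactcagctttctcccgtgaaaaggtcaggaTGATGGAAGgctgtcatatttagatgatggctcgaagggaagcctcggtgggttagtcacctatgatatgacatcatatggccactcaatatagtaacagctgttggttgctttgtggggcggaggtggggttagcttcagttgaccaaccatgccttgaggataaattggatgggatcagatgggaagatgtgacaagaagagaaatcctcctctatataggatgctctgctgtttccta
PPP1R15A: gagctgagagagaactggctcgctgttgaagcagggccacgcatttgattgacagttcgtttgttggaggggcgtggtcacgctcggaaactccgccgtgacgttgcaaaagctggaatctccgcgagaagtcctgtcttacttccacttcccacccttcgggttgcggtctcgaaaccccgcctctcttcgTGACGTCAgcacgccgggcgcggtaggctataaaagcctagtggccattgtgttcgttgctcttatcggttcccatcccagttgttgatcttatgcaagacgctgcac
DDIT3: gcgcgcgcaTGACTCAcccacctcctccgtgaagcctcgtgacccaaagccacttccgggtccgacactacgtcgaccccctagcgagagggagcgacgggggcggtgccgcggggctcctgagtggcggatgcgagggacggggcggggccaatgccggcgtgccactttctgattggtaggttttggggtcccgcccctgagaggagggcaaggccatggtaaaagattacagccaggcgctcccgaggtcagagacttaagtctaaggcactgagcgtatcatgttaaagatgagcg
The C/EBP-ATF response element, searched as TGATGNAAN on both strands, was found in the CEBPG window, beginning 42 bases before the start, and in the ATF3 window, 191 bases before it. It is present in 3.61% of the 35116 windows of the table. The cAMP response element, searched as TGACGTCA, was found in the PPP1R15A window, 58 bases before the start, and is present in 1.85% of all windows. The AP-1 site, searched as TGANTCA on both strands, was found in both overlapping DDIT3 windows and in 1 ATF5 window, and is present in 7.71% of all windows. The C/EBP palindrome TTGCGCAA was in none of the 18 windows and in 0.151% of all. The DDIT3 matches are the same site, since both windows cover it. No match of an element overlapped a match of another element, and a match of letters is not a measured binding site.

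ATF4 (chromosome 22, 39519695 to 39522685, GRCh38, plus strand), the central transcription factor of the response, had the highest level of the 10 genes in both libraries. Its FPKM was 463 in the control library and 499 in the SOS library. The SOS value was the higher one by 1.08-fold, a log2 ratio of 0.11. By this ratio it is the smallest difference of the 10, while in FPKM units only NUPR1 differed by more. With all compared genes ranked by mean FPKM and divided into 5 equal groups, the most abundant group, which holds ATF4 and reaches down to much lower levels, had a median log2 ratio of -0.34, and the least abundant group 0.22. The ratio of ATF4 was above that of 62.9% of all genes and above that of 86.8% of the genes in its own group. ATF4 made up 74.6% of the summed FPKM of the 10 genes in control and 68.7% in SOS. Its 4 processed pseudogenes in the table were at an FPKM of 0.172 or less in both libraries.

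ATF4 has a leader, the part of the message before the coding sequence, of 882 bases with 7 upstream ATG triplets in the GENCODE release 29 transcript of the principal protein. Upstream open reading frames in its leader are what lets ATF4 escape the general fall in translation under stress, but the count of triplets does not identify such frames. Of the 10 genes, 8 had at least 2 upstream ATG triplets, against 29.8% of 11499 coding genes compared. Longer leaders hold more triplets by length alone: the median leader was 189 bases over those genes, while 9 of the 10 had leaders of 265 to 882 bases and DDIT3 had 180. EIF2AK3 had 5. TRIB3, CEBPG and DDIT3 had 3 each, ATF5, NUPR1 and PPP1R15A had 2 each, ATF3 had 1 and CEBPB had 0. The triplets are a count of letters and do not show which of them are translated. The transcript taken need not be the one these cells express.

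Several of the other genes encode proteins that pair with ATF4 or act beside it on DNA. DDIT3 (chromosome 12, 57516588 to 57521737, minus strand) encodes CHOP, a C/EBP-family factor linked to cell death under prolonged stress. Its FPKM was 13.1 in control and 25.7 in SOS. The SOS value was 1.96-fold higher, a log2 ratio of 0.92 that exceeded the ratios of 95.4% of all genes. The FPKM of ATF4 was 35.3 times that of DDIT3 in control and 19.4 times in SOS. DDIT3 shares 355 exonic bases, 27.2% of its own, with MARS, a tRNA synthetase gene on the other strand, which was at 185 in control and 170 in SOS. Whether the libraries kept strand is not given in the sources used here, so reads of the shared stretch are uncertain. The log2 ratio of MARS was -0.12 as deposited and 0.10 under equal-sum scaling, and the part of the shared reads in the DDIT3 value was not tested. Another partner on the opposite strand, MBD6, shares 58 bases and was at 8.76 and 12.7.

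CEBPB (chromosome 20, 50190734 to 50192689, plus strand) encodes C/EBPβ, a factor of differentiation and inflammation that forms pairs with ATF4. It was at an FPKM of 6.89 with the control peptide and 11.0 with SOS. On the log2 scale SOS was higher by 0.61. The antisense gene CEBPB-AS1, which overlaps it over 231 exonic bases, was at 0.201 and 0.320. CEBPG (chromosome 19, 33373330 to 33382686, plus strand) encodes C/EBPγ, a short family member that pairs with ATF4 at amino acid response genes. Its FPKM was 24.3 with the control peptide and 32.2 with SOS, 1.33-fold higher, with a log2 ratio of 0.40. CEBPG stood above CEBPB in both libraries, by 3.52-fold in control and by 2.93-fold in SOS. The other C/EBP genes did not share this direction. CEBPA was at 5.26 and 3.59 and CEBPD at 2.06 and 1.70, both lower in SOS under each alternative described at the end that measured them. CEBPE was under the minimum of 1 in both libraries.

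ATF3 (chromosome 1, 212565334 to 212620777, plus strand) encodes a stress-induced factor that represses or activates genes depending on its partner. Its FPKM was 5.18 in control and 8.41 in SOS, where it was 1.62-fold higher, with a log2 ratio of 0.61, above that of 89.0% of all genes. ATF3 had the lowest control level of the 10 genes. ATF5 (chromosome 19, 49928702 to 49933935, plus strand), a close relative of ATF4 known for its part in the mitochondrial stress response, was at 28.6 in control and 17.4 in SOS. The control value was the higher one by 1.65-fold, and the log2 ratio of -0.69 was above that of only 6.54% of all genes. ATF5 stood above TRIB3 in control and below it in SOS.

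A limit applies to ATF5 that bears on its place as the exception. NUP62, a nuclear pore gene on the other strand, shares 626 exonic bases with it, 21.2% of the exonic bases of ATF5. NUP62 was at an FPKM of 64.2 with the control peptide and 40.4 with SOS, a log2 ratio of -0.66 close to that of ATF5. Without strand information, reads of the shared stretch cannot be assigned to either gene, and their part in the ATF5 value was not tested. IL4I1, a further gene on that strand with 75 shared bases, was at 0.101 in control and listed at 0 in SOS.

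**Figure D2:**
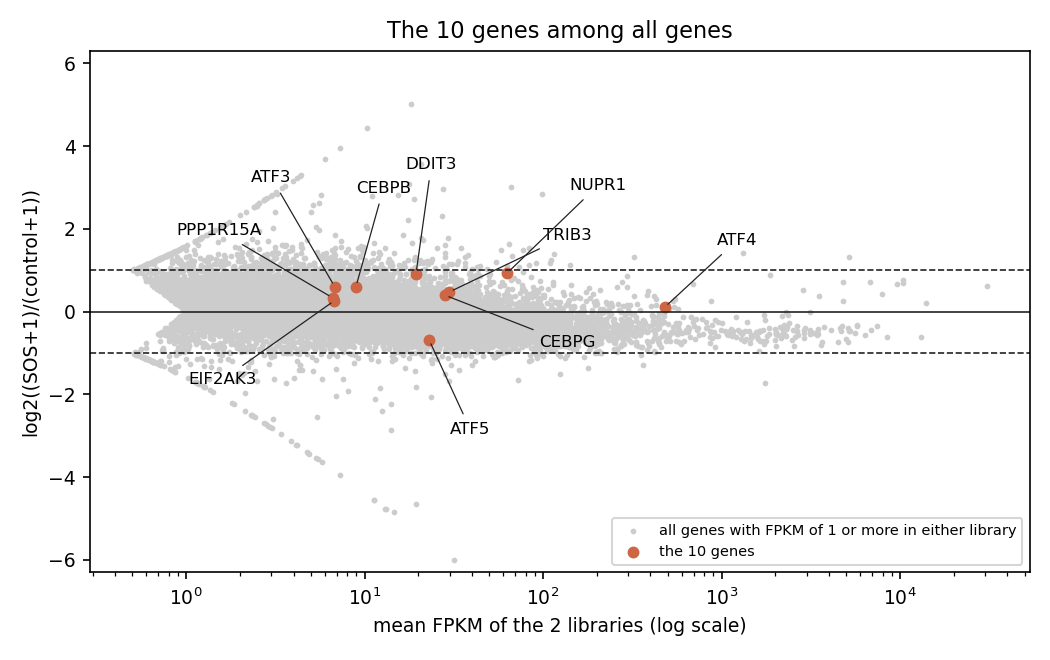
Log2 ratio (SOS over control, pseudocount of 1) against mean FPKM of the 2 libraries on a log axis, with grey points for all 14288 genes compared and the 10 genes named. Dashed lines mark the size rule at log2 ratios of 1 and -1. The 10 genes all lie between the dashed lines, with DDIT3 and NUPR1 nearest to the upper one.

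Of the wider ATF and CREB family, with ATF3, ATF4 and ATF5 left out, 13 of 18 listed genes were measured at the minimum level. Of these 7 were above 0, against 45.8% of all genes compared, and none met the size rule. The median was 0.04. The highest ratio was that of ATF2, a partner of JUN, at 13.6 in control and 17.6 in SOS. JDP2, a repressor that pairs with JUN, was at 22.5 and 28.0. The lowest was that of BATF3, a factor known from dendritic cells, at 7.22 in control and 3.65 in SOS, followed by ATF1, a CREB relative, at 26.1 and 20.4. BATF3 had a log2 ratio of -0.82, and by the authors' ratio, turned and adjusted as described further on, it was past the size rule at -1.26. The family as listed thus stood on both sides of 0.

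NUPR1 (chromosome 16, 28532708 to 28539174, minus strand) encodes a small stress-induced nuclear protein that acts with other factors on transcription. Its FPKM was 43.0 in control and 82.9 in SOS. The SOS value was 1.93-fold higher, and the log2 ratio of 0.93 was above that of 95.5% of all genes. With the pseudocount of 1 this was the highest of the 10, while by the plain FPKM ratio DDIT3, at 1.96-fold, stood above it. Within the most abundant group of genes its ratio exceeded 98.8% of the others. TRIB3 (chromosome 20, 362835 to 397559, plus strand) encodes a pseudokinase induced by ATF4 and CHOP that in turn binds ATF4 and restrains it. Its FPKM was 24.8 with the control peptide and 34.9 with SOS, 1.41-fold higher, with a log2 ratio of 0.48. Of its relatives, TRIB1 was at 34.0 in control and 29.5 in SOS, a log2 ratio of -0.20 that was 0.02 under equal-sum scaling. TRIB2 was at 7.07 and 8.47, a log2 ratio of 0.23. By the authors' ratio, turned and adjusted as described further on, TRIB2 came to 0.64 and TRIB3 to 0.51.

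EIF2AK3 (chromosome 2, 88556741 to 88627576, minus strand) encodes PERK, the eIF2α kinase of the endoplasmic reticulum. Its FPKM was 6.07 in control and 7.49 in SOS. This was 1.23-fold higher in SOS, a log2 ratio of 0.26. That ratio was above those of 73.6% of all genes and 73.7% of the genes in its own group by mean FPKM. AC104134.1, an antisense gene that shares 781 exonic bases with EIF2AK3, was listed at 0 in control and 0.074 in SOS. The other eIF2α kinases were not higher in the deposited values. EIF2AK1, the kinase that answers haem lack and mitochondrial stress, was at 65.7 and 65.2, a log2 ratio of -0.01 that was positive under equal-sum scaling or with the median of all genes set to 0. EIF2AK4, the sensor of uncharged tRNA known as GCN2, was at 20.8 in control and 17.1 in SOS. EIF2AK2, the kinase activated by double-stranded RNA and known as PKR, was at 22.5 and 16.6.

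The target of these kinases and its exchange factor stood lower in SOS as deposited. Of the 8 subunits of eIF2 and eIF2B, 7 were below 0, none was past the size rule, and the median log2 ratio was -0.48. Over all genes compared 45.8% were above 0, with a median of -0.05. In the most abundant of the 5 groups by mean FPKM the median was -0.34, and in the next -0.16. The part of level in these ratios was not tested. EIF2S1, which encodes eIF2α itself, was at 179 in control and 1.79-fold lower in SOS, a log2 ratio of -0.83. EIF2B4, a subunit of the exchange factor, was at 38.5 and 23.9. EIF2S3 was at 59.1 and 57.1, and EIF2S2, the subunit above 0, at 87.7 and 93.0. Under equal-sum scaling, 3 of the 8 were above 0, against 62.9% of all genes.

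PPP1R15A (chromosome 19, 48872392 to 48876057, plus strand) encodes GADD34, the stress-induced subunit that directs protein phosphatase 1 to eIF2α and so ends the response. It was at an FPKM of 5.74 with the control peptide and 7.50 with SOS. The difference was 1.31-fold, a log2 ratio of 0.33. That ratio was above those of 77.7% of all genes and 69.2% of the genes in its own group by mean FPKM. DDIT3, induced by the same pathway, was at 2.29 times the FPKM of PPP1R15A in control and 3.43 times in SOS. Of the 7 other genes listed for the phosphatase and for kinase inhibitors 3 were above 0, against 45.8% of all genes compared. Their median was -0.20, and it was positive under equal-sum scaling and by the authors' ratio. The constitutive counterpart PPP1R15B was at 19.7 and 21.4. The catalytic subunits were PPP1CA at 155 in control and 108 in SOS, PPP1CB at 38.6 and 43.8, and PPP1CC at 112 and 96.2. Of the proteins that restrain eIF2α kinases or bring the phosphatase to eIF2α, DNAJC3, an inhibitor of PERK and PKR, was at 5.67 and 5.73, IMPACT, an inhibitor of GCN2, at 24.3 and 21.0, and the adaptor NCK1 at 14.2 and 10.9.

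The authors' own log2 ratio gives a second view of each of the 10 genes, since it is not the ratio of the deposited FPKM. Turned to SOS over control, with its median offset of 0.15 from the FPKM ratio over 8976 genes removed, it had the same direction for all 10. How it was computed, and whether it holds a pseudocount, is not stated. It is set here against the plain log2 ratio of the FPKM. CEBPB came to 0.84 against 0.68 by FPKM, and ATF4 to 0.22 against 0.11. NUPR1 came to 0.76 against 0.95, and EIF2AK3 to 0.16 against 0.30. ATF3, DDIT3, TRIB3, CEBPG, PPP1R15A and ATF5 differed by less between both measures, with DDIT3 at 0.94 against 0.97 and ATF5 at -0.75 against -0.72. By the authors' ratio DDIT3 and CEBPB stood above NUPR1, and EIF2AK3 differed less than ATF4. None of the 10 genes carried the mark of significance of the authors' deposited table, against 5.88% of the genes compared. Every marked gene in that table had an authors' log2 ratio of at least 1 in size.

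**Figure D3:**
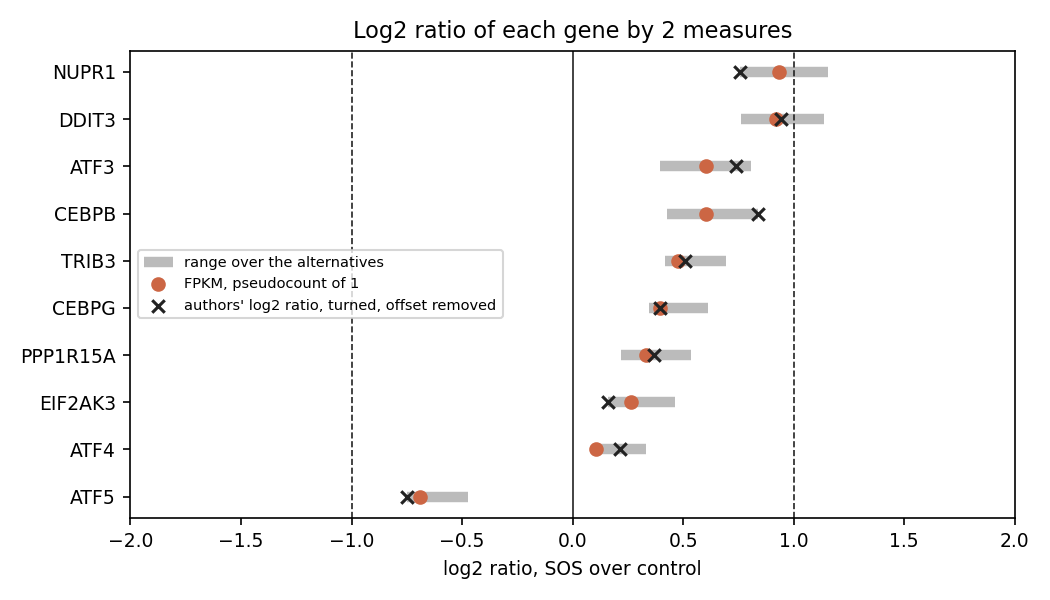
Log2 ratio of SOS over control for each of the 10 genes, by FPKM with a pseudocount of 1 (circles) and by the authors' ratio turned and with its offset removed (crosses). Grey bars give the range over 8 processing alternatives. The bars of 9 genes lie above 0 and that of ATF5 lies below it, and those of NUPR1 and DDIT3 cross the dashed line at 1.

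Genes that ATF4 and CHOP are known to act on were listed by role, with the 10 genes left out. Together 42 of 54 measured targets were above 0, with a median log2 ratio of 0.26, and 6 were higher by the size rule and none lower. Over all genes compared the shares were 45.8% above 0, 3.74% higher and 1.64% lower. By the authors' ratio 9 of the 54 were past the rule, with GDF15, KLHL24 and BBC3 added, against 6.50% of all genes. Under equal-sum scaling 50 were above 0 and 11 past the rule, against 62.9% and 6.03% of all genes. The 6 by the deposited FPKM were SLC7A11 and CHAC1 of the amino acid list and VEGFA, FGF21, DDIT4 and INHBE of the list of growth, secreted and stress targets. FGF21, a hormone of metabolic stress, was at an FPKM of 2.77 with the control peptide and 8.87 with SOS. INHBE, an activin subunit known from the liver, was at 13.7 and 31.5. VEGFA is also a gene of the hypoxia response. The lists do not set apart other targets that answer to further pathways as well, and which factor acted on them was not tested.

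The target groups were not alike, and their levels differed too. The median of all genes was 0.22 in the least abundant of the 5 groups by mean FPKM and -0.34 in the most. The part of level in the order of the target groups was not tested. Among 15 measured growth, secreted and stress targets 12 were above 0, with a median of 0.62, and the lowest were HMOX1, the haem oxygenase, at 11.0 in control and 7.59 in SOS and TXNIP, a thioredoxin inhibitor, at 26.2 and 21.3. Among 21 amino acid targets 18 were above 0, with a median of 0.19. The highest were SLC7A11, the cystine importer, with a log2 ratio of 1.56 and CHAC1, a glutathione-degrading enzyme, with a log2 ratio of 1.31. The lowest were ALDH18A1, an enzyme of proline synthesis, at 55.2 and 47.1 and SLC7A5, a transporter of large neutral amino acids, at 117 and 112. Among 12 tRNA synthetase genes 7 were above 0, with a median of 0.08. EPRS was at 69.4 and 93.6 and CARS at 53.0 and 64.8, while NARS was at 156 and 110 and WARS at 191 and 175. Under equal-sum scaling, 11 of these 12 were above 0.

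Of 6 genes of cell death and related roles under CHOP and ATF4, 5 were above 0, none was past the size rule, and the median was 0.50. BBC3, which encodes the BH3 protein PUMA, was at an FPKM of 2.46 with the control peptide and 5.61 with SOS, and ERO1A, an oxidase of the endoplasmic reticulum, at 20.2 and 30.4. BBC3 was 2.28-fold higher and missed the rule with the pseudocount of 1, at 0.93, but passed it with 0.1 (1.15), under equal-sum scaling (1.13) and by the authors' ratio (1.23). TNFRSF10B, a death receptor, was at 26.8 and 31.4, and BCL2L11, which encodes BIM, was the one below 0, at 4.77 and 4.14.

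The other arms of the unfolded protein response did not stand on one side. Of 15 measured genes of the IRE1 and ATF6 arms 6 were above 0, against 45.8% of all genes compared. Their median was -0.04, and it turned positive under both scaling alternatives. ERN1, which encodes the sensor IRE1, was at 1.95 in control and 2.65 in SOS, and PDIA4, a disulfide isomerase, at 135 and 149. The lowest were SDF2L1, at 122 and 77.4, and the chaperone gene HSPA5, at 228 and 151. In the relay from mitochondria to eIF2α, OMA1, the protease that cleaves DELE1, was at 7.38 and 12.2 and DELE1, listed under its older name KIAA0141, at 27.9 and 28.3. YME1L1, a protease of the inner membrane, was at 60.6 and 53.7. Among 5 genes for turnover and cofactors of ATF4, 1 was above 0: EP300, an acetyltransferase, at 13.1 and 13.5. RPS6KA3, a kinase of ATF4, was at 9.12 and 5.85, a log2 ratio of -0.56 that was 0.10 by the authors' ratio. FBXW11, which marks ATF4 for breakdown, was at 22.7 and 19.1, and NFE2L2, which encodes NRF2, at 28.3 and 27.4.

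**Figure D4:**
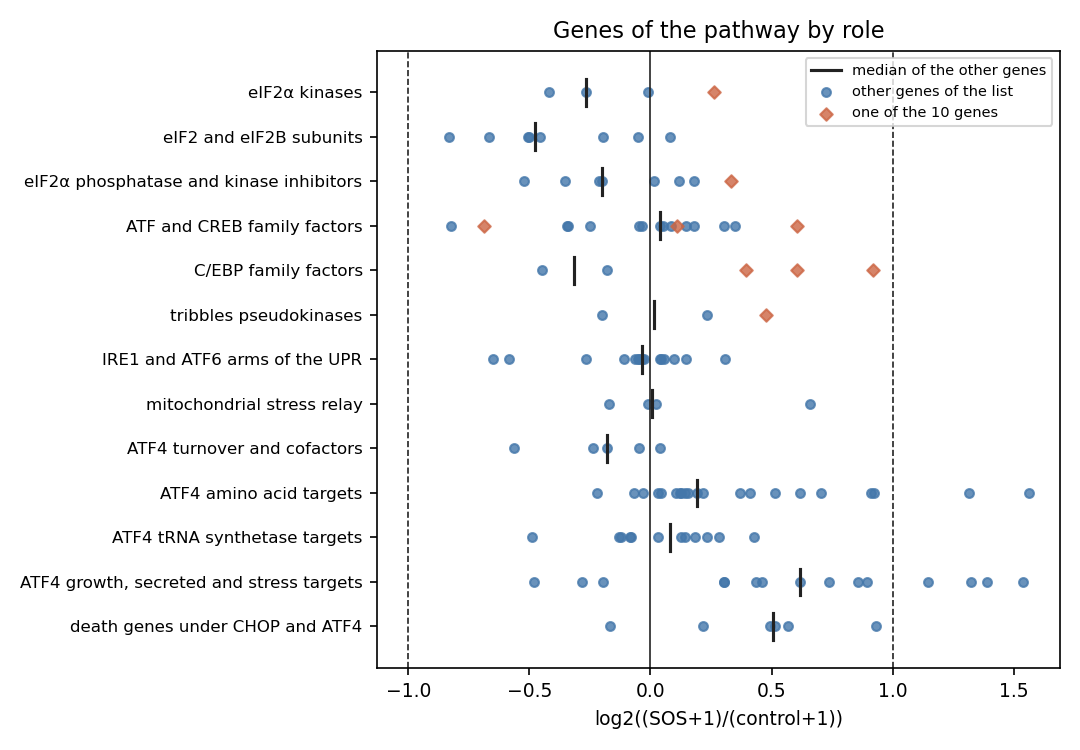
Log2 ratio (SOS over control, pseudocount of 1) of every measured gene of the pathway lists, 1 line per list. Circles are listed genes, diamonds are the 10 genes, black bars are medians without them, and dashed lines mark the size rule. The diamonds of the kinase, phosphatase, C/EBP and tribbles lists lie to the right of all other genes of their lists.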

How the data were processed

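RNA from 2 libraries of HGC-27 cells, 1 per group, was compared after 48 h of treatment. The deposited values are FPKM for the control and the SOS library, per the file headers. The same table gives a log2 ratio, a p-value and an adjusted p-value of the authors. The submitters' processing notes name GRCh38.p10 as the genome build and RSEM, HISAT2 and Cufflinks as tools. Versions, roles, library depth and the test behind the authors' p-value are not stated there. Of 58645 entries, 412 without a name and 27 with names turned into dates were left out, and entries that share a name were summed. Genes that reached an FPKM of 1 in at least 1 library were compared by log2 ratio with a pseudocount of 1 (Python 3.11.15, pandas 2.3.3). Alternatives changed the pseudocount, the minimum, the scaling, the value of a gene and the summing. The counting of genes past the size rule was checked on simulated data without noise, with changes well past the rule. Its outcome was fixed in advance, so it checks the code and does not bear on the rule with single libraries. The text names all 10 genes, and of each pathway list every gene past the size rule with the 2 highest and 2 lowest ratios, and every measured gene of the kinase, phosphatase, C/EBP and tribbles lists. A marker of the fixed lists is not reported here. The genes, lists and rules were chosen with earlier results of these data known. Positions come from GENCODE release 29 on GRCh38, which may differ from the authors' annotation.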

Additional observations from a re-analysis of the deposited data

How the results depend on the processing

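For the 10 genes, 8 alternatives were run. All 10 kept their direction in each, and the median and the count above 0 did not change side. Most of the alternatives could not have changed a direction. A pseudocount does not alter the sign of a ratio, and each gene had 1 entry and passed every minimum. Both scalings only raise the ratios, so of the 10 genes they could have turned ATF5 alone. Only the authors' ratio could have turned the 9 higher genes. The count past the size rule on the higher side went from 0 to 2 with equal sums over named genes in the libraries (NUPR1 1.16, DDIT3 1.14). That scaling moved these counts above 0 by over 1.5 times: eIF2α kinases from 0 to 1, eIF2 and eIF2B subunits from 1 to 3, phosphatase and kinase inhibitors from 3 to 5 (median 0.016), tribbles from 1 to 2, IRE1 and ATF6 arms from 6 to 12 (median 0.18), mitochondrial relay from 2 to 4, turnover and cofactors from 1 to 3 (median 0.019) and tRNA synthetases from 7 to 11. Smaller moves were those of ATF and CREB factors (7 to 9), amino acid targets (18 to 20), growth targets (12 to 13) and death genes (5 to 6). With the median of all genes set to 0, the kinases had 1 above 0, turnover and cofactors 2, and the IRE1 and ATF6 arms 9, with a median of 0.013. By the authors' log2 ratio, turnover and cofactors had 2 above 0 and the phosphatase list a median of 0.0042. With a pseudocount of 5 the tribbles median was -0.0095. The change under scaling follows from its construction, since it adds to every ratio; for the authors' ratio the cause was not tested. The number of genes past the size rule moved from 535 higher and 235 lower to 1094 and 442 with a pseudocount of 0.1, 99 and 64 with a pseudocount of 5, 273 and 126 with a minimum of 5, 862 and 162 with equal sums, and 926 and 303 by the authors' ratio. No paired analysis was possible because each group has 1 library. The table gives no counts, so depth sets no stated limit on these values.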

Other observations

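In the authors' deposited table, EIF2AK3 has a log2 ratio of -0.006083 with a p-value of 5.14e-05 and an adjusted p of 0.0001827, so that a ratio next to 0 stands beside a small p. For 7 of the 10 genes the authors' deposited table lists the p-value as 0, as it does for 2809 of the gene names that stand on a single entry. There were 56544 gene names in all, 213 of them on several entries. The share among the 14288 genes compared, or among genes of like level, was not computed, so the 7 cannot be set against it. ATF4, with an authors' log2 ratio of -0.06281, is among them. These p-values compare 2 single libraries and carry no replicate error.

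The 3 stress-induced C/EBP and CHOP genes CEBPB, CEBPG and DDIT3 had log2 ratios of 0.61, 0.40 and 0.92, while CEBPA and CEBPD had ratios of -0.45 and -0.18.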
